A study of Arabidopsis thaliana with 40 samples.

Results

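Trichostatin A (TSA) was set directly against S-nitrosoglutathione (GSNO) after 3 h of treatment, using the 4 chromatin immunoprecipitation (ChIP) libraries of these groups, 2 for TSA and 2 for GSNO, out of 20 ChIP libraries and 40 samples in the whole series. The libraries were chosen by their labels, and the water libraries did not enter. The mark was H3K9/14ac, which is histone H3 acetylated on lysine 9 or lysine 14, measured over 13362 regions listed in the authors' tables. The series maps sites of this mark that respond to nitric oxide. All groups were seedlings of Arabidopsis thaliana, ecotype Col-0, aged 7 days and grown in shaken liquid culture in short days. TSA was given at 5 µM and GSNO at 250 µM, each for 3 h and each in 2 biological replicates. GSH at 250 µM and GSNO at 250 µM with 500 µM cPTIO, also for 3 h with 2 libraries each, are given beside some values and used to rank regions by their level.

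TSA blocks zinc-dependent histone deacetylases, enzymes that remove acetyl groups from histone tails. GSNO is a donor of nitric oxide, and nitric oxide can modify cysteines of proteins, histone deacetylases among them. GSH is glutathione without the nitroso group, and cPTIO is a scavenger of nitric oxide. H3K9/14ac lies mostly around the start sites of genes in use, and light-harvesting and clock genes are among the plant genes known for acetylation that follows light and time of day. The sources used here do not give the hour of harvest. The seedlings were taken whole, so a higher level in each cell and a larger share of cells with the mark cannot be told apart.

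The tables give group means, from which the whole reads of each library were recovered. The recovered reads carry no replicate number, so the shallower of each pair is called a and the deeper b. The TSA libraries held 2261175 and 2311352 reads in the regions, and the GSNO libraries 1752168 (a) and 4053207 (b), so GSNO b was 2.31 times as deep as GSNO a. A level is given below as a relative level, the reads of a region divided by the median over the regions of its library, which was 160 and 163 reads with TSA and 115 and 275 reads with GSNO. A difference is the log2 of TSA over GSNO after each library was centred on its median, so a change that touched all regions alike would not be seen. Over regions, the log2 levels had a standard deviation (SD) of 0.58 and 0.54 in the TSA libraries, and of 0.83 in GSNO a and 0.53 in GSNO b. Pearson's r of these levels over the 13362 regions was 0.829 within TSA and 0.809 within GSNO, and 0.558 to 0.586 between a TSA and a GSNO library. These are descriptions, and the points of a library share its depth. Markers of roots and shoots were of little use as a check of tissue, since 2 of 8 root genes and 1 of 6 shoot genes overlapped a region, and none of these 3 regions was called. The shoot gene, TMM, differed by 0.42, with both TSA libraries above both GSNO libraries, and it was called higher after quantile normalisation and after each library was centred within 10 classes of level, taken from GSH and GSNO with cPTIO, an alternative chosen after seeing the data.

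TSA and GSNO differed in acetylation at about 1 in 6 regions, with genes of light harvesting, chlorophyll synthesis and the clock among those higher with TSA. In limma's test with Benjamini-Hochberg adjustment over all regions, 893 regions (6.68%) were higher with TSA and 1343 (10.1%) were lower at an adjusted p under 0.05, which together made 2236 (16.7%). The median difference was 0.83 at the higher regions and -0.74 at the lower ones, and 243 were higher and 210 lower by more than 1 on the log2 scale. Both TSA libraries lay above both GSNO libraries at 25.8% of all regions and below them at 33.1%. Of the called regions, 885 of the 893 higher and 1339 of the 1343 lower ones had groups that did not overlap. Among the 11126 regions not called, the 95% interval of the difference lay within 1 log2 unit of 0 for 80.9%. In the authors' deposited group means, each column centred on its median, the difference had an SD of 0.50 and ran from -0.81 (5th percentile) to 0.76 (95th percentile).

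These counts rest on a variance that limma shares between regions of like level. Without that trend 34 regions were higher and 27 lower, and without TSA library a or b 75 or 60 were higher and 251 or 253 lower. Of the calls, 39.9% were higher as fitted and 51.3% after quantile normalisation, which gave 1245 higher (9.32%) and 1180 lower (8.83%). With the GSH and GSNO with cPTIO libraries in the fit, 509 were higher and 1355 lower. Of the 90 regions named by rule, 19 stayed called without TSA a, 22 without TSA b, 62 without GSNO a and 86 without GSNO b.

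The largest called differences upward were at a mixed set of genes. CDF3, a DOF transcription factor that acts downstream of the clock in the control of flowering, had relative levels of 1.89 and 1.61 with TSA, and of 0.0609 and 0.487 with GSNO. Its region, on chromosome 3 at 17504417 to 17506001 in the tables' coordinates, differed by 3.27 ± 0.47 (SE; limma adjusted p = 6.03e-07). The groups did not overlap, and GSNO a, with 7 reads, was far below GSNO b, with 134. Without the trend in the variance the limma adjusted p of this region was 0.0678, and in the deposited group means its difference was 2.67.

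AMY3, an alpha-amylase of the chloroplast that breaks down starch, had 136 and 178 reads with TSA, and 17 and 31 with GSNO. In relative level both GSNO libraries lay close together, at 0.148 and 0.113, against 0.85 and 1.09 with TSA, and the difference was 2.84 ± 0.90 (limma adjusted p = 0.0202). AIRP2, a ubiquitin ligase of abscisic acid signalling, had 139 and 187 reads with TSA, and 2 and 132 with GSNO. Its difference of 3.24 ± 1.14 (limma adjusted p = 0.0373) therefore came mostly from GSNO a, although GSNO b was also below both TSA libraries in relative level, at 0.48 against 0.869 and 1.15.

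Of these 12 largest rises, 4 were no longer called when GSNO a was left out. TIC40, a subunit of the import machinery of the chloroplast's inner membrane, had 145 and 149 reads with TSA, and 5 and 165 with GSNO. Its limma adjusted p was 0.0266 with all libraries and 0.155 without GSNO a. For AT5G57270 these adjusted p-values were 0.0211 and 0.636, for AT4G19440 0.00158 and 0.094, and for AT1G21500 0.0458 and 0.075. AT3G48240, by contrast, had relative levels of 1.18 and 1.16 with TSA, and 0.104 and 0.262 with GSNO, and its difference of 2.77 ± 0.62 stayed called under every alternative that left out no library.

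**Figure D1:**
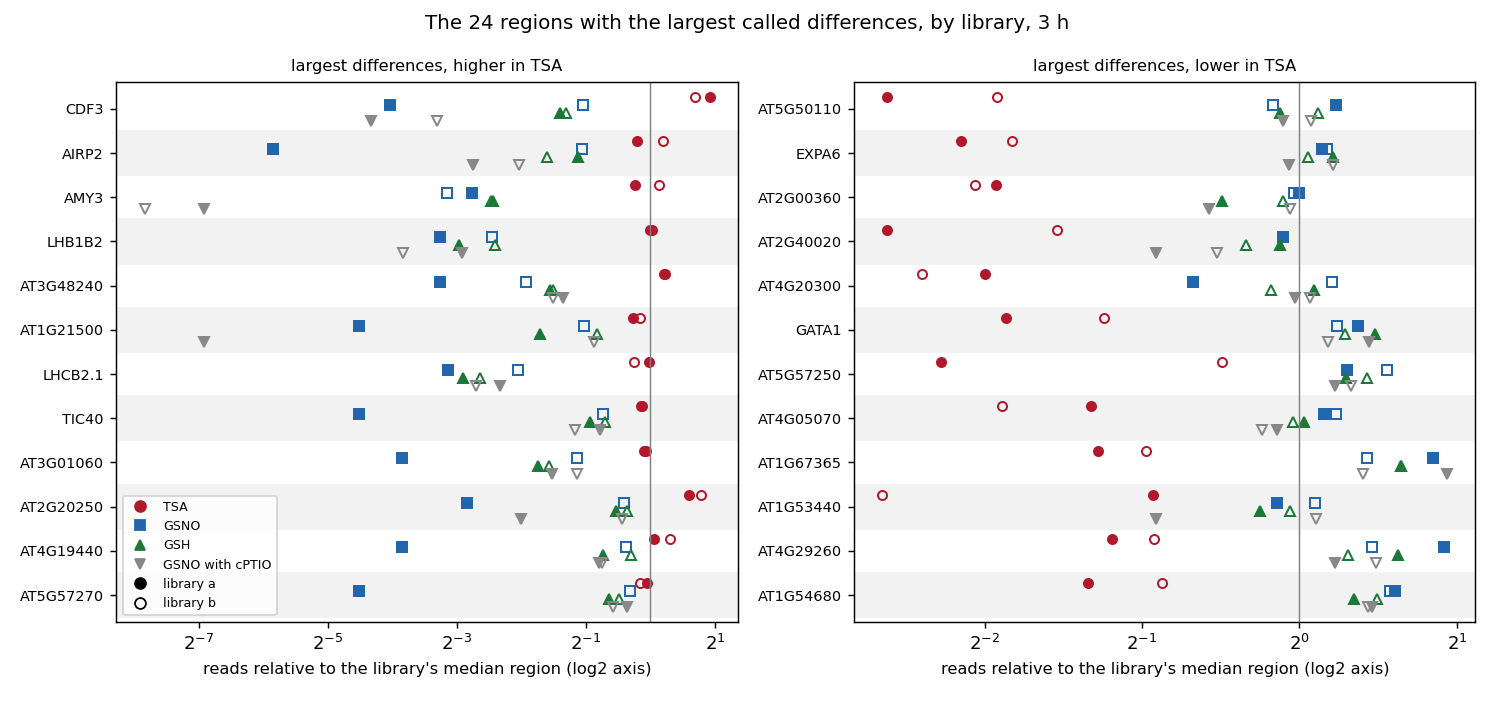
Relative level (reads divided by the library's median region, log2 axis) at the 24 regions with the largest called differences, 12 higher with TSA on the left and 12 lower on the right. Each point is a library: TSA, GSNO, GSH and GSNO with cPTIO, filled for library a and open for library b. At AT1G21500, TIC40, AT4G19440 and AT5G57270 the open GSNO point lies below the TSA points but much closer to them than the filled one. At EXPA6 both GSNO points lie near 1.1 and both TSA points under 0.3.

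The gap between GSNO a and b was a feature of the whole comparison. GSNO a lay below GSNO b by more than 2 log2 units at 77 regions and above it by that much at 0, and the TSA libraries were that far apart at 13. Of the 77 regions, 18 were called higher with TSA. The difference between the paired libraries had an SD over regions of 0.33 for TSA and 0.51 for GSNO. The median over the higher regions was 0.96 against GSNO a and 0.70 against GSNO b, and over the lower regions -0.86 against a and -0.66 against b. These regions were called from the same libraries, so the medians describe their size and are no test. Without GSNO a there were 810 higher and 958 lower calls, of which 564 and 808 were among those of the full fit.

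**Figure D2:**
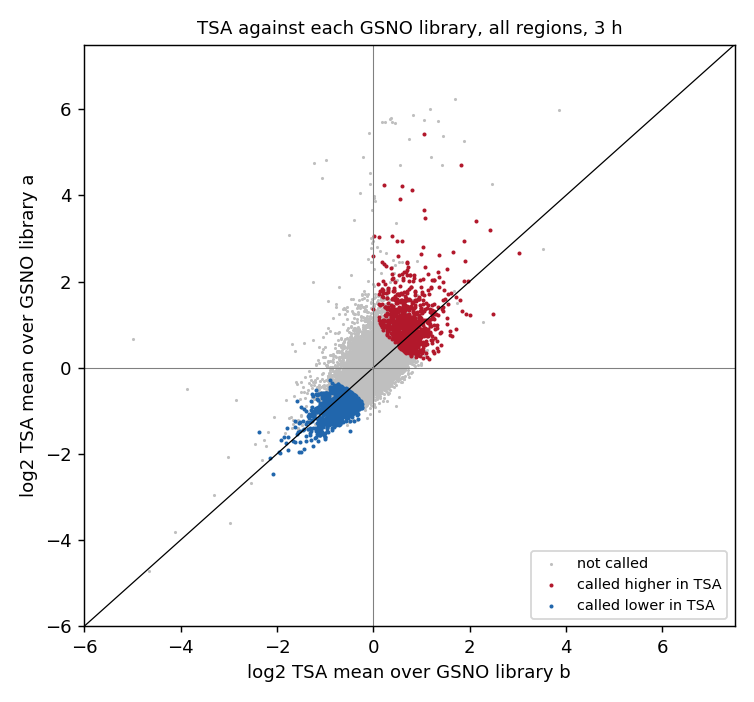
Log2 difference of the TSA mean over GSNO library b (horizontal axis) and over GSNO library a (vertical axis), 1 point per region for all 13362 regions, with called regions in colour and the line of equal values. Most called points lie on the same side of 0 on both axes, and a group of points far above the line marks regions where GSNO a held few reads.

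Antenna genes, which encode the chlorophyll-binding proteins that collect light for the photosystems, were higher with TSA at 9 of 16 regions, against 6.68% of all regions, and lower at 0. For photosystem I, 3 of 6 regions were higher (median difference 0.71). For photosystem II, 6 of 10 were higher (median 1.63), and the 2 TSA libraries lay above both GSNO libraries at 9 of 10, against 25.8% of all regions. The median over all regions was -0.04. These lists have a low level, with a median in GSH and GSNO with cPTIO of 0.61 for photosystem I and 0.49 for photosystem II, against 1.00 over all regions. In the lowest of 10 classes of that level, 18.3% of regions were higher and 0 lower.

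LHCA1, an antenna protein of photosystem I, had relative levels of 1.36 and 1.44 with TSA, and 0.339 and 0.375 with GSNO. The replicates of each group were close to each other and the groups were far apart, with a difference of 1.95 ± 0.31 (limma adjusted p = 2.76e-06) at chromosome 3, 20339859 to 20340964. GSH gave 0.311 and 0.349 there, and GSNO with cPTIO 0.415 and 0.253. LHCA4 differed by 1.68 ± 0.33 and LHCA3 by 1.27 ± 0.25 in the same direction, while LHCA2 (0.16), LHCA6 (-0.23) and LHCA5 (-0.48) were not called. LHCA5 and LHCA6 are minor members of this antenna.

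In the antenna of photosystem II, LHB1B2, a protein of the main trimeric complex, had relative levels of 0.994 and 1.01 with TSA, and 0.104 and 0.182 with GSNO. LHCB2.1, of the same complex, had 0.981 and 0.834 with TSA, and 0.113 and 0.24 with GSNO. Both regions were near the median of their library with TSA and among the low ones with GSNO, with differences of 2.81 ± 0.82 and 2.41 ± 0.77. LHCB6, a monomeric linker protein, had 1.79 and 1.64 with TSA, and 0.548 and 0.513 with GSNO, which was 1.68 ± 0.22 (limma adjusted p = 1.4e-07). LHCB5 (1.69), LHCB3 (1.59) and LHCB1.3 (0.87) were also higher. LHCB2.2 differed by 1.67 ± 0.95 and was not called, with 97 and 104 reads with TSA, and 34 and 34 with GSNO. The other linker genes LHCB4.2 (0.68), LHCB4.1 (0.29) and LHCB4.3 (-0.13) were not called either. LHB1B2 and other genes of the trimeric complex are near-identical copies, and the sources used here do not say how reads shared between copies were placed.

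Of 38 regions of the photosystem cores, electron transport and the Calvin cycle, 6 were higher (15.8%, against 6.68% of all regions) and 4 lower (10.5%, against 10.1%), with a median of -0.07. PSAE-2, a stromal subunit of photosystem I whose region also overlaps AT2G20250, had 241 and 280 reads with TSA, and 16 and 208 with GSNO (2.28 ± 0.34). PSAF (0.94) and PSAH2 (0.99), also of photosystem I, were higher. GAPB, a subunit of the Calvin cycle's glyceraldehyde-3-phosphate dehydrogenase, was lower at relative levels of 0.519 and 0.564 with TSA, and 1.25 and 1.21 with GSNO (-1.18 ± 0.26; limma adjusted p = 0.000679). DRT112, a plastocyanin, and PSBX, a small subunit of photosystem II, fell by 0.72 and 0.79.

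Of 14 regions of chlorophyll synthesis 5 were higher (35.7%, against 6.68% of all regions), 0 were lower (against 10.1%) and the median was 0.32. PORB and PORC, which carry out the step that needs light, were higher by 1.65 ± 0.22 and 1.01 ± 0.25. PORB had relative levels of 1.9 and 1.66 with TSA, and 0.426 and 0.742 with GSNO, groups that did not overlap. CAO, which makes chlorophyll b from chlorophyll a, had 1.2 and 0.908 with TSA, and 0.209 and 0.356 with GSNO (1.91 ± 0.45). GUN5, the large subunit of magnesium chelatase, and CRD1, a subunit of the cyclase, were higher by 0.97 and 0.81. Earlier steps such as HEMA1 (0.50) and GSA2 (0.11), and the last step CHLG (-0.04), were not called.

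Of 23 clock regions 5 were higher (21.7%, against 6.68% of all regions), 0 were lower (against 10.1%) and the median was 0.25. After quantile normalisation 9 were higher and 0 lower, against 9.32% and 8.83% of all regions. Beside CDF3, these were LNK3, of a family of transcriptional co-activators in the clock (1.99 ± 0.51), CDF1, a relative of CDF3 (1.00 ± 0.29), ZTL, the light-sensing F-box protein that marks clock proteins for breakdown (0.82 ± 0.22), and RVE1, a MYB factor linked to auxin (0.81 ± 0.27). Several core genes were not called. LUX had relative levels above 1 in all 4 libraries at one of its 2 regions and a difference of 0.10 there, and TOC1 differed by -0.20 and ELF3 by 0.17.

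Several of the largest differences were at clock regions that were not called, and they were chosen after their values were seen. GI, a large protein of the clock and of flowering, had 175 and 125 reads with TSA, and 1 and 16 with GSNO. Its fitted difference was 4.92 with an SE of 4.71, the trend giving regions of very low mean level a wide spread, and its adjusted p was 0.505 with the trend and 0.0376 without it. PRR7, a repressor of the morning genes, had 155 and 151 reads with TSA, and 5 and 46 with GSNO (3.37 ± 1.34; limma adjusted p = 0.0676 with the trend and 0.0423 without). LNK4 had 174 and 177 reads with TSA, and 1 and 91 with GSNO (limma adjusted p = 0.0674), and PRR9 61 and 59 with TSA, and 1 and 37 with GSNO (limma adjusted p = 0.843). Both TSA libraries lay above both GSNO libraries at each of these 4 regions, as they did at 25.8% of all regions. The 4 were picked among uncalled regions whose groups did not overlap, so this was set by the choice. No library held a value below 1 read, and the sources used here do not say whether lower values were set to 1. GSH and GSNO with cPTIO were low there too: at GI, relative levels were 0.00556 and 0.0504 with GSH, and 0.0083 and 0.00873 with GSNO with cPTIO.

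**Figure D3:**
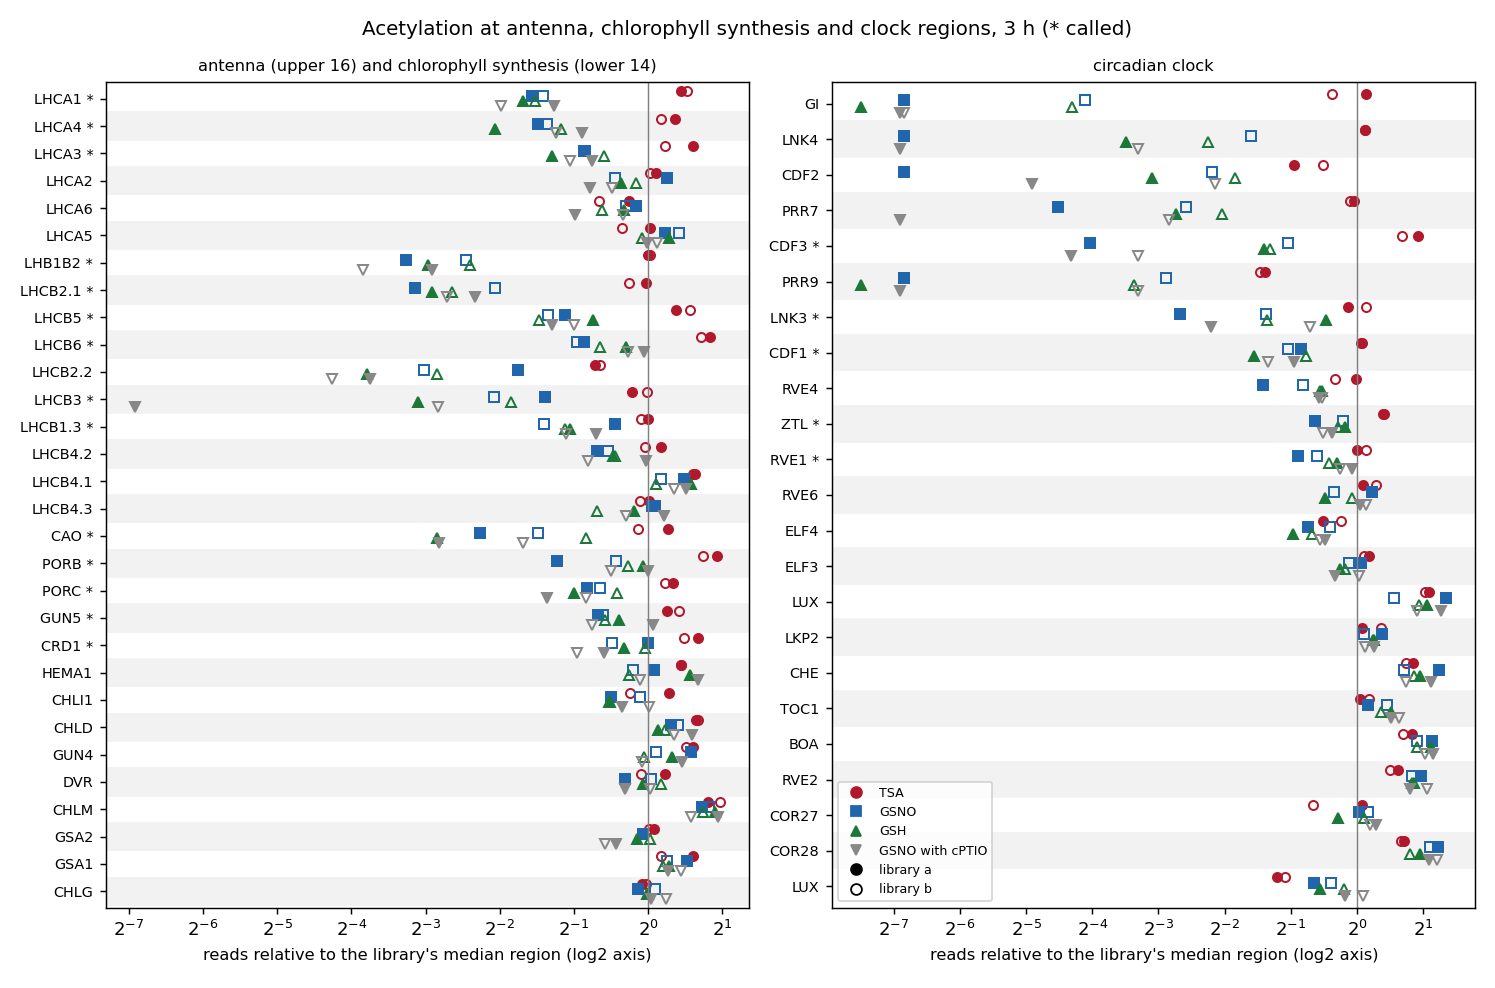
Relative level (reads divided by the library's median region, log2 axis) in each library at the 16 antenna and 14 chlorophyll synthesis regions on the left and the 23 clock regions on the right. Colours and shapes give TSA, GSNO, GSH and GSNO with cPTIO, filled for library a and open for library b, and an asterisk marks a called region. At LHCA1 both TSA points lie near 1.4 and the other 6 between 0.253 and 0.415, and at GI the TSA points lie at 1.09 and 0.767 and those of GSNO at 0.0087 and 0.0582.

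In light signalling 2 of 32 regions were higher (6.25%, against 6.68% of all regions), 3 were lower (9.38%, against 10.1%) and the median was 0.02. These shares were near those of all regions, but they depended on the scaling. After quantile normalisation 7 were higher and 1 lower, against 9.32% and 8.83% of all regions. After centring within classes of level 3 were higher and 0 lower, against 4.44% and 3.3% of all regions. Both TSA libraries lay above both GSNO libraries at 15 of the 32 regions, against 25.8% of all regions, and below them at 8, against 33.1%. STO (BBX24), a B-box protein that holds back light responses, was higher at relative levels of 1.43 and 1.23 with TSA, and 0.557 and 0.233 with GSNO (1.86 ± 0.33; limma adjusted p = 2.7e-05). SPA1, a partner of COP1, was higher by 0.93. BBX21, a B-box protein that promotes light responses, fell by 0.83, COL1 fell by 0.57 and the blue-light receptor CRY1 fell by 0.54. PIF4, a growth-promoting factor that phytochrome acts on, had 138 and 140 reads with TSA, and 14 and 19 with GSNO. Its difference of 3.15 ± 1.39 had a limma adjusted p of 0.103 with the trend and 0.0191 without it.

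Starch genes were higher at 3 of 9 regions (33.3%, against 6.68% of all regions) and lower at 0 (median 0.57). Beside AMY3 these were DPE1, a chloroplast enzyme that joins maltotriose units, by 1.09 ± 0.25, and ADG1, the small subunit of the first enzyme of starch synthesis, by 0.72 ± 0.24. The list has a low level, with a median of 0.60 in GSH and GSNO with cPTIO, against 1.00 over all regions. Centred within classes of that level, 1 was higher, against 4.44% of all regions, and the median was 0.15. The limma adjusted p-values were then 0.0909 for DPE1 and 0.412 for ADG1. Among the phosphoenolpyruvate carboxylases, PPC1 was higher by 0.68. PPC2 went the other way in its reads, with 1 and 10 with TSA, and 86 and 198 with GSNO, but the difference of -4.69 had an SE of 6.58 (limma adjusted p = 0.671 with the trend and 0.0391 without).

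**Figure D4:**
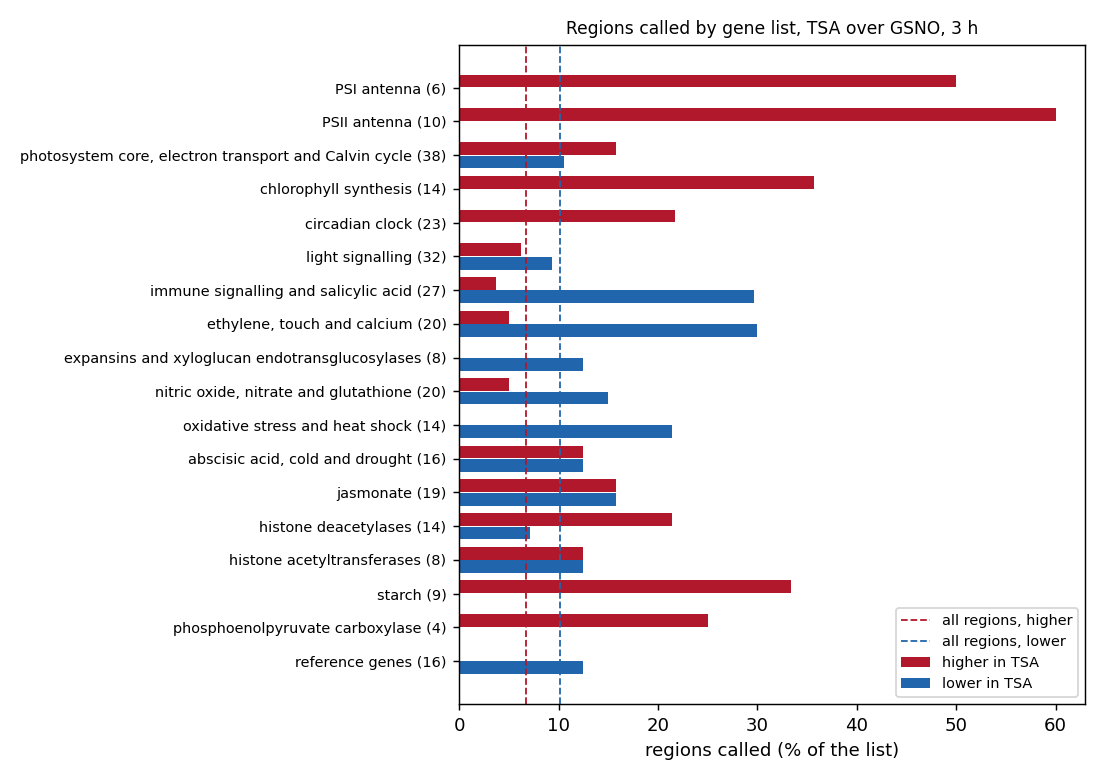
Percent of the regions of each gene list called higher (red) or lower (blue) with TSA than with GSNO, with the number of regions in brackets. The dashed lines are the shares over all regions, 6.68% higher and 10.1% lower. Photosystem II antenna genes reached 60% higher and 0% lower, and ethylene, touch and calcium genes 30% lower.

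Differences downward with TSA were led by regions that mostly lay near or above the median in GSNO. EXPA6, an expansin that loosens cell walls, had relative levels of 0.225 and 0.282 with TSA, and 1.1 and 1.13 with GSNO. Its groups were far apart and its replicates close, with a difference of -2.12 ± 0.45 (limma adjusted p = 0.000479) at chromosome 2, 12431692 to 12432260. GATA1, a zinc-finger transcription factor, had 0.275 and 0.423 with TSA, and 1.3 and 1.18 with GSNO (-1.84 ± 0.34). AT1G67365, a long non-coding RNA gene, had 0.412 and 0.509 with TSA, and 1.8 and 1.35 with GSNO (-1.75 ± 0.25; limma adjusted p = 6.03e-07). The largest called fall was at AT5G50110, at -2.27 ± 0.57, with 26 and 43 reads with TSA, and 135 and 245 with GSNO, and its limma adjusted p of 0.00309 became 0.095 without GSNO a. GSH and GSNO with cPTIO lay beside GSNO at EXPA6, at 1.16 and 1.04 with GSH, and 0.954 and 1.16 with GSNO with cPTIO.

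Genes of immunity and salicylic acid were lower at 8 of 27 regions, against 10.1% of all regions, and higher at 1, with a median of -0.40. PAD4, a lipase-like regulator of salicylic acid defence, fell by 1.09 at one of its 2 regions and differed by -0.03 at the other. MPK3, a kinase of pattern-triggered defence, had relative levels of 1.39 and 1.00 with TSA, and 2.49 and 2.07 with GSNO (-0.94 ± 0.19; limma adjusted p = 0.000264). RBOHD, the oxidase behind the oxidative burst, fell by 0.81 and WRKY33, a transcription factor of defence against fungi, by 0.70. NPR4, a receptor of salicylic acid, was the one higher region at 0.84 ± 0.28, and its limma adjusted p went up to 0.652 without GSNO a.

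Ethylene, touch and calcium genes had 6 of 20 regions lower (30%, against 10.1% of all regions), 1 higher (5%, against 6.68%) and a median of -0.54. The lower ones were the ethylene response factors ERF4 (-0.92), ERF-1 (-0.75), ERF5 (-0.61) and ERF104 (-0.52), with the calmodulin CAM1 (-0.69) and the calmodulin-like TCH3 (-0.71). EIN2, the central membrane protein of ethylene signalling, was higher by 0.83 ± 0.22, and without GSNO a its limma adjusted p was 0.412. These 2 lists hold regions of high level: the median level in GSH and GSNO with cPTIO was 1.37 for immunity and 1.15 for ethylene, touch and calcium, against 1.00 over all regions. When each library was centred within classes of that level, 4.44% of all regions were higher and 3.3% lower. Immunity then had 0 higher and 1 lower (median -0.17) and ethylene, touch and calcium 1 higher and 0 lower (median -0.42).

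In the list of oxidative stress and heat shock 3 of 14 regions were lower (21.4%, against 10.1% of all regions) and 0 higher, among them the zinc-finger factor ZAT12, at relative levels of 0.237 and 0.534 with TSA, and 1.02 and 1.07 with GSNO (-1.53 ± 0.38; limma adjusted p = 0.00274). For drought, cold and abscisic acid, 2 of 16 regions were higher (12.5%, against 6.68%) and 2 lower (12.5%, against 10.1%), with COR413-PM1 (0.99) and the cold factor CBF3 (0.94) up, and RD26 (-0.86) and ERD10 (-0.65) down. Jasmonate had 3 higher and 3 lower of 19, each 15.8%, in which a biosynthetic enzyme, AOC2 (1.16), the conjugating enzyme JAR1 (0.78) and the factor ORA59 (1.03) were up and the repressors JAZ1 (-0.69), JAZ6 (-0.61) and JAZ2 (-0.58) were down. Centred within classes of level, oxidative stress and heat shock had 1 higher and 1 lower, drought, cold and abscisic acid 0 and 0, and jasmonate 1 and 1. Of all regions, 4.44% were then higher and 3.3% lower. In the list of expansins and xyloglucan endotransglucosylases, EXPA6 was the sole call among 8 regions.

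Genes of nitric oxide, nitrate and glutathione, the list closest to the donor's own chemistry, had 1 higher (5%, against 6.68% of all regions) and 3 lower (15%, against 10.1%) of 20 regions and a median of -0.04. Centred within classes of level, 2 were higher and 0 lower, against 4.44% and 3.3% of all regions. NIA2, a nitrate reductase, fell by 0.84 at one of its 2 regions, at relative levels of 1.13 and 1.35 with TSA, and 2.49 and 1.97 with GSNO. NTRB, a thioredoxin reductase, fell by 0.73 and a region of the nitrate transporter NRT1.1 by 0.59. GSTU19, a glutathione transferase, was higher by 0.73. HOT5, the enzyme that breaks down GSNO, differed by 0.23 ± 0.19 and was not called (limma adjusted p = 0.419).

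Histone deacetylase genes, some of which encode targets of TSA, had 3 higher (21.4%, against 6.68% of all regions) and 1 lower (7.14%, against 10.1%) of 14 regions, with a median of 0.31. The higher ones were HDA6 (0.54), HD2A (0.56) and HD2C (0.62), the last 2 of a plant-specific family, and the lower one was HDA14 (-0.89). HDA19 differed by 0.38 and was not called. Centred within classes of level, HDA6 alone was called (limma adjusted p = 0.0283), where 4.44% of all regions were higher and 3.3% lower. The median was then 0.08, with limma adjusted p-values of 0.0587 for HD2A, 0.0584 for HD2C and 0.0786 for HDA14. Without GSNO a, the limma adjusted p of HD2A was 0.537. Of 8 histone acetyltransferase regions, HAG3 was higher by 0.64 and HAM2 fell by 0.70. That is 1 region or 12.5% each way, against 6.68% of all regions higher and 10.1% lower. Centred within classes of level, 0 of them were higher and 0 lower. Of 16 regions of genes often used as references, 2 fell (12.5%, against 10.1% of all regions), UBQ10 by 0.94 and UBC9 by 0.71, and 0 were higher. Their median was -0.21, and ACT2 differed by 0.06 ± 0.19.

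The difference followed the level of a region in GSH and GSNO with cPTIO. Regions were ranked by their level in GSH and GSNO with cPTIO, which did not enter the fit, and cut into deciles, 10 classes of equal size. In the lowest decile the median difference was 0.42, with 244 regions higher and 0 lower, and in the highest decile -0.44, with 2 higher and 484 lower. Over the 4 pairs of a TSA and a GSNO library, the median ran from 0.22 to 0.61 in the lowest decile and from -0.59 to -0.30 in the highest. In these deciles TSA levels were nearer to the middle than GSNO levels. Median relative levels in the lowest decile were 0.756 with TSA and 0.572 with GSNO, and in the highest 1.63 and 2.15. The ranking libraries had a Pearson's r of 0.799 to 0.914 with the GSNO libraries and 0.539 to 0.634 with those of TSA. Such a ranking by itself places TSA levels nearer to the middle, so it cannot show whether their range was narrower. Over all regions the SD of log2 levels was 0.58 and 0.54 with TSA, and 0.83 and 0.53 with GSNO. When the deciles were taken from the mean of TSA and GSNO, the lowest decile had a median of 0.01 and the highest -0.31. Depth differed between the GSNO libraries, and its part in this was not tested.

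**Figure D5:**
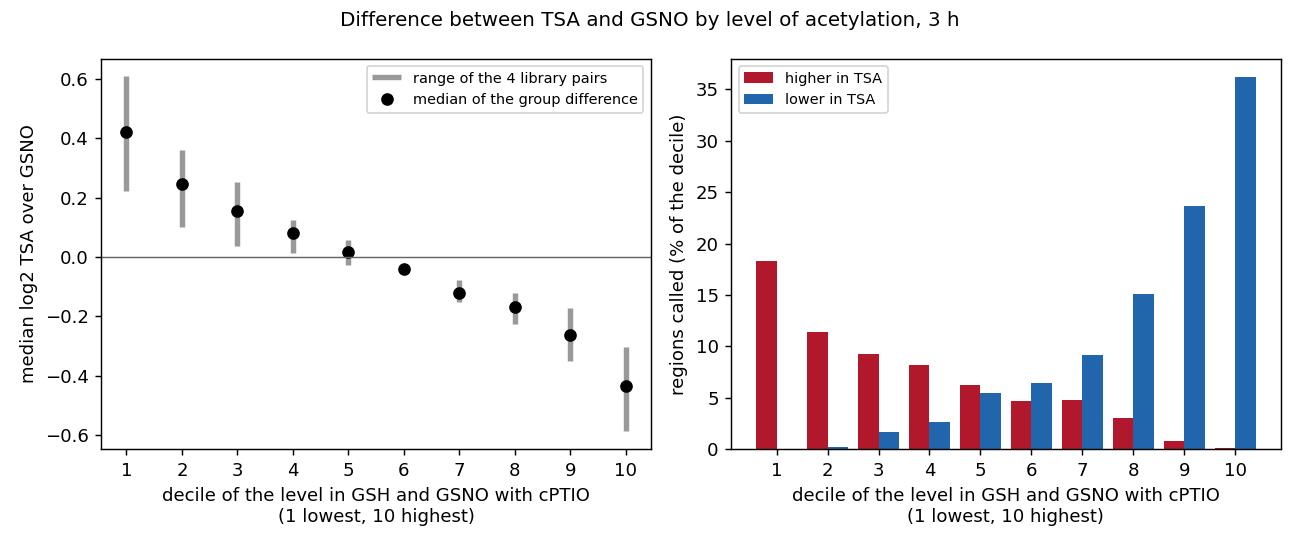
Left, median log2 difference of TSA over GSNO in each decile of the level in GSH and GSNO with cPTIO (1 lowest, 10 highest), with the range over the 4 library pairs as a grey bar. Right, percent of each decile called higher (red) or lower (blue) with TSA. The median falls with each decile, from 0.42 to -0.44, and the calls change from all higher to almost all lower.

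With each library centred within the deciles, 593 regions were higher (4.44%) and 441 lower (3.3%), of which 355 and 406 were among the calls given above. Under this centring, photosystem I antenna genes had 3 higher and 0 lower, those of photosystem II 4 and 0, chlorophyll synthesis 4 and 0, and the clock 4 and 0. LHCB6 (limma adjusted p = 0.000339), PORB (0.00124), LHCA1 (0.00417) and CDF3 (0.00471) stayed higher. PORC (0.114), CRD1 (0.0504), CDF1 (0.19), RVE1 (0.0666), LHCB3 (0.0885) and LHCB1.3 (0.427) were no longer called. HEMA1 (0.044) and LUX (0.0478), not called before this centring, were each 1 of the 4 higher regions of their list.

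Of 318 regions without a protein-coding gene, 4 were higher with TSA (1.26%, against 6.68% of all regions) and 54 lower (17.0%, against 10.1%), with a median of -0.37 and a level in GSH and GSNO with cPTIO of 0.82. Centred within deciles, 4 were higher and 32 lower, where all regions had 4.44% higher and 3.3% lower. Besides AT1G67365, the lower ones included MIR166a, a precursor of the microRNA that limits leaf polarity factors, with 94 and 58 reads with TSA, and 157 and 272 with GSNO.

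Of 519 genes with at least 2 regions, 50 had a higher and 125 a lower region, and 5 had both. At least 2 regions were higher in 0 of them and lower in 19. Over single regions 6.68% were higher and 10.1% lower, and a gene with more regions has more chances of a call. RPA1A, a subunit of the DNA-binding replication protein A, had 1 region higher by 1.24 and another, which also overlaps PSBX, that fell by 0.79. AT5G57250 had a region that fell by 1.79, with 33 and 116 reads with TSA, and 142 and 404 with GSNO, and a neighbour that rose by 1.73, with 125 and 149 with TSA, and 11 and 177 with GSNO. In that neighbour the higher call came with a GSNO library a far below b.

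The peak lists, which the authors called for each library, held 13672 and 11119 peaks with TSA, and 13520 and 7884 with GSNO. The means were 12395.5 with TSA and 10702 with GSNO, and an exact two-sided permutation test gave p = 0.667, where 2 lists against 2 cannot give less than 0.333. Without the second GSNO list the difference of means turned from 1693.5 to -1124.5. At AT5G57270 and AT4G19440, GSNO a held 5 and 8 reads and GSNO b 220 and 211. Both regions had a peak in the first GSNO list and none in the second, so there the shorter second list goes with GSNO a. Peaks lay in both TSA lists and neither GSNO list at 421 regions, of which 218 were called higher and 0 lower, with a median difference of 0.89. The reverse held at 277 regions, of which 0 were called higher and 150 lower, with a median of -0.83. Peaks and reads came from the same libraries, so these counts are no independent evidence of the differences. Regions with TSA peaks alone included LHCA1, LHCA3, LHB1B2, LHCB3, LHCB5, LHCB6, CAO, PORC, GUN5, GI, PRR7, CDF1, CDF3, PIF4, STO and AMY3. Those with GSNO peaks alone included EXPA6, ZAT12 and GAPB, which were called lower. Regions of NIA2 (-0.21), PSBQ-2, GSTU24 and AOS also had GSNO peaks alone and were not called. The NIA2 region that fell by 0.84 had a peak in each list.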

How the data were processed

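H3K9/14ac was measured by ChIP-seq in 2 TSA and 2 GSNO libraries of 3 h. The authors deposited log2 group means of normalised reads per region in a table per treatment, and a peak list per library. The submitters' processing notes name DiffBind and edgeR, without versions, and the builds TAIR10 and TAIR9, and no source used here gives the aligner or the peak caller. The 2 tables were normalised separately. Reads of each library were therefore recovered from the group means, as sums of whole reads times a factor per library, which came out whole for 100% of regions within 1e-08. Reads times factor plus a pseudocount of 1 were moved to log2 and centred on each library's median. The test was limma 3.58.1 (R 4.3.3), two-sided, with moderated variances that follow the mean level (4 libraries, Benjamini-Hochberg over 13362 regions, threshold 0.05). The pseudocount makes the fold too small for low regions, but a mean of log2 values also gives weight to a library with few reads. The fitted difference was 3.24 at AIRP2 and 2.23 at AT5G57270, against 2.01 and 1.13 in the deposited group means. At AMY3 it was 2.84 against 2.90. Recovery and test were checked on simulated data. The simulation of the test gave all 4 libraries the same spread, so it did not cover the gap between GSNO a and b. P-values rest on the spread between 2 biological replicates per group, mostly as pooled over regions of like level. Of 102.01 degrees of freedom per region, 100.01 came from this pooling, so a region's own replicates count for little. Regions were linked by an overlap of at least 1 base to genes of RefSeq's TAIR10.1 table, used for names alone, and 13314 of 13362 had a gene. A region that overlaps several genes counts for each.

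Regions were named by a rule: the 12 largest called differences in each direction with at least 20 reads in both libraries of the higher group, every called region of the antenna, clock and light lists, and up to 6 of each other list by adjusted p. Regions outside the rule were chosen after their values were seen. The members and lists were chosen with earlier results of these data known. Each GSNO peak list held 1 malformed line, which was left out. Input libraries were not used here.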

Additional observations from a re-analysis of the deposited data

How the results depend on the processing

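Of 90 regions named by the rule, 0 changed direction under any alternative, and 12 were called under every alternative that left out no library: LHCA1, LHCA4, LHCB5, LHCB6, AT3G48240, EXPA6, GATA1, AT1G67365, AT2G00360, AT4G05070, AT4G29260 and AT1G54680. With GSH and GSNO with cPTIO in the fit, 509 regions were higher and 1355 lower. Centring within deciles of the level, chosen after seeing the data, gave 593 higher and 441 lower, and no trend in the variance gave 34 higher and 27 lower. Leaving out 1 library gave from 60 to 1819 regions higher and from 251 to 2319 lower, the lone library being assumed to vary like the other group, and 19 of the 90 named regions stayed called without TSA a, 22 without TSA b, 62 without GSNO a and 86 without GSNO b. The median of the lowest decile was 0.0093 with the level taken from TSA and GSNO. The difference in mean peaks ran from -1124.5 (without GSNO replicate 2) to 4511.5 when a list was left out. Other pseudocounts, trimmed mean factors, quantile normalisation and voom weights kept both counts within 1.5 times of those given, with 1112 higher and 1720 lower under voom. A filter at a mean of 20 reads removed 0 regions, and a stricter peak score was not run because the score is 0 for all peaks. No paired analysis was possible because the recovered libraries carry no replicate number. The cause of these changes was not tested. Regions at 1 read, where counting gives little precision, numbered 5 and 2 with TSA, and 21 and 0 with GSNO.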
